A study of Mus musculus with 26 samples.

Results

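The comparison set forelimbs of mouse embryos that carried 1 intact Hic1 allele against forelimbs of wild type embryos, both at stage E13.5, a mid-gestation embryo. Its members were taken from the labels: the 3 libraries of the conventional series labelled heterozygous (Hic1 +/-) and the 3 labelled wildtype (Hic1 +/+), 6 of the 26 libraries of the study. The other 20 libraries were 3 conventional knockouts (Hic1 -/-) and 17 libraries of a second strategy, in which Cre driven by Prrx1, a gene active in limb bud mesenchyme, deletes a floxed Hic1 allele. That strategy had 5 controls with 1 floxed allele and no Cre (Hic1 f/+), 5 heterozygotes with Cre and 1 floxed allele, and 7 knockouts with Cre and floxed alleles on both chromosomes. The study asked how loss of Hic1 alters forelimb gene expression under either strategy, and the heterozygote comparison asks what changes when 1 allele is lost. The conventional allele is carried by every cell, forelimbs were homogenised whole, and the labels name neither the strain nor whether a library holds 1 embryo, a pool or a litter. The p-values below therefore measure the spread between these libraries, which may be technical. Expression is given in FPKM (fragment counts scaled to transcript length and library size), and differences are log2 of FPKM plus a pseudocount of 1, Het minus WT. This scale understates the change of genes with low FPKM.

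Hic1 (hypermethylated in cancer 1) encodes a zinc finger transcriptional repressor that recruits corepressors such as CtBP to DNA sites with a GGCA core. In mouse it is expressed in mesenchymal progenitors and connective tissue fibroblasts. The human gene lies in a region lost in Miller-Dieker syndrome, and mice without any intact allele die around birth with developmental defects, while heterozygotes live.

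Hic1 lies on chromosome 11 on the minus strand, at chr11:75164565-75169519 in build mm10. RefSeq, on GRCm38.p6, places starts of the gene in 2 windows of 300 bases (250 before and 50 after the start). They are printed on the strand of the gene because Hic1 is the perturbed locus and its product binds sites with a GGCA core. Capitals mark GGCA or its reverse complement TGCC. The first window is chr11:75168103-75168402 and the second chr11:75170206-75170505, both on the minus strand.
Hic1, downstream start: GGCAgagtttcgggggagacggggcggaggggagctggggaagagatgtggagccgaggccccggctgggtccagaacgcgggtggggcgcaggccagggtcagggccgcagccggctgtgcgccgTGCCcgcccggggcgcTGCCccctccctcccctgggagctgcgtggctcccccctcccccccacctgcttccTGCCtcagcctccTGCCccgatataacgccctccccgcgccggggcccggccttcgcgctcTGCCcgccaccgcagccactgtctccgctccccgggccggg
Hic1, upstream start: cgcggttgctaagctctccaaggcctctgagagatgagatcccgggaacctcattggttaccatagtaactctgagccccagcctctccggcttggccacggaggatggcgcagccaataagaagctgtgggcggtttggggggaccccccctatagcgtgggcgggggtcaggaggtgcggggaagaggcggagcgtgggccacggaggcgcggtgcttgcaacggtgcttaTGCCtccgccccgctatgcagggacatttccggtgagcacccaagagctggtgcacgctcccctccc
The downstream window holds 6 GGCA matches and the upstream window 1. GGCA, searched on both strands, is in 92.4% of the 32851 promoter windows of the same length, with a median of 3 matches. The longer GGGCANCC, also on both strands, each match of which holds a GGCA, is in 5.46% of windows and in neither of those of Hic1.

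Hic1 stood at 64.2, 49.1 and 56.2 FPKM in WT replicates 1 to 3, and at 37.3, 32.2 and 30.9 FPKM in Het replicates 1 to 3. Each Het library was below each WT library, and the conventional knockouts held 2.56, 1.30 and 1.23 FPKM, so the targeted gene followed the labels in all 9 libraries. The Het mean was 59.2% of WT, and same-numbered libraries gave 58.1%, 65.5% and 55.0%. The log2 difference was −0.74 with a standard error (SE) of 0.12. In the limma fit across all genes tested it did not pass Benjamini-Hochberg adjustment (adjusted p = 1.00). With the replicate number as a block, the SE was 0.054 and it did (adjusted p = 0.0321). The two-sided exact permutation test of the 3 against 3 libraries gave p = 0.1, the smallest value that design allows. Heterozygotes of the Prrx1-Cre series held 52.6% of the control level, with a log2 difference of −0.90 ± 0.073 (SE) and a limma adjusted p of 6.09e-04. With the column letters of that series as a term it was −0.81 ± 0.096 (SE) and was not called (limma adjusted p = 0.189).

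Beyond Hic1, loss of 1 allele left nearly all genes where the spread between libraries could not separate the groups. Of 12763 genes whose mean over the 6 libraries reached 1 FPKM, limma called 2 at an adjusted p under 0.05, or 0.0157%. Both rose, and none fell. They were 2610507I01Rik and Gm15772, both placed by the deposited table on chromosome 11. An unadjusted p under 0.05 was reached by 142 genes (1.11%), of which 78 (0.611%) were higher and 64 (0.501%) lower. With the replicate block, 4 genes were called (0.0313%), 3 higher (0.0235%), namely the same 2 and Hmgn2, and 1 lower (0.00784%), Hic1. An unadjusted p under 0.05 was then reached by 951 genes (7.45%), 477 higher (3.74%) and 474 lower (3.71%). The 95% interval of the log2 difference lay within 1 unit of 0 for 12300 genes (96.4%), and for 12665 genes (99.2%) with the block. The median width on either side was 0.24 log2 units without the block and 0.14 with it. A change smaller than that was mostly not detectable with these 6 libraries. These widths are not adjusted for the number of genes, so larger changes could also go uncalled. Hic1, at −0.74, was not called without the block.

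**Figure D1:**
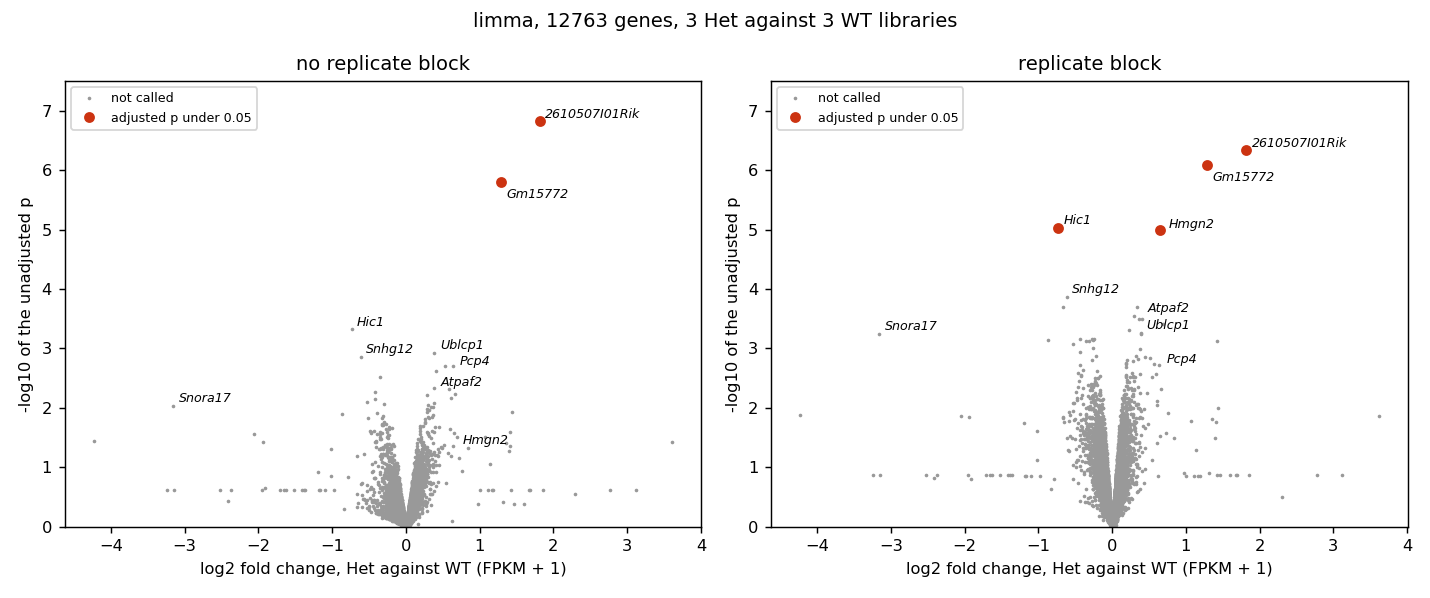
Each point is 1 of the 12763 genes tested, with the log2 fold change of Het against WT on the horizontal axis and −log10 of the unadjusted limma p on the vertical axis. The 2 genes called without the replicate block stand apart on the left panel, and 4 are called with the block on the right panel.

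2610507I01Rik is annotated in GENCODE M21 as a processed transcript at chr11:59199836-59202385 on the minus strand, and no function is given in the sources used here. It stood at 1.02, 1.10 and 1.06 FPKM in the WT libraries and at 6.45, 6.18 and 6.17 FPKM in the Het libraries. All 3 Het libraries were near 6 and all 3 WT libraries near 1, with no overlap. It rose by 1.82 ± 0.082 on the log2 scale (SE; limma adjusted p = 0.00191), a mean of 589% of WT. The knockouts held 12.4, 11.3 and 5.74 FPKM, so 1 of them was at the level of the heterozygotes. Its window at chr11:59202382-59202681, minus strand, is printed on that strand because the gene had the smallest p of the comparison.
2610507I01Rik: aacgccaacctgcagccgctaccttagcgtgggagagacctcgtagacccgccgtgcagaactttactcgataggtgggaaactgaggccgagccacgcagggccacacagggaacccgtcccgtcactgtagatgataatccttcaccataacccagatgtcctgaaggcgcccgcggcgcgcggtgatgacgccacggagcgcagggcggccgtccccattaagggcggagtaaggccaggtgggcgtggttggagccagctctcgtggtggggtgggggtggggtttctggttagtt
It holds 0 GGCA and 0 GGGCANCC matches, which says only that these letters are not in this window.

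The Prrx1-Cre libraries gave another pattern for 2610507I01Rik. Its 5 controls stood at 1.16, 1.18, 0.76, 6.49 and 6.97 FPKM, and its 5 heterozygotes at 0.742, 6.67, 0.873, 0.986 and 0.766 FPKM. The levels fell into values near 1 and values above 6 in both groups, and the highest of the 7 knockouts was 1.45 FPKM. The 2 high controls share the column letters OC and the high heterozygote has the letters OA. In that series the level did not follow the genotype labels, and the log2 difference was −0.50 (limma adjusted p = 0.788).

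Gm15772 stood at 191, 206 and 203 FPKM in WT and at 526, 506 and 445 FPKM in Het. Every Het library exceeded every WT library by more than the spread within either group. It rose by 1.29 ± 0.084 on the log2 scale (SE; limma adjusted p = 0.0101). The knockouts held 915, 879 and 435 FPKM, again with replicate 3 near the heterozygotes. The identity of this entry is uncertain. The deposited table places it at chr11:68901566-68904534, over Rpl26, which encodes a protein of the large ribosomal subunit, while GENCODE M21 has a processed pseudogene of that name on chromosome 5. Rpl26 itself was listed at 60.1, 20.1 and 37.4 FPKM in WT and 55.7, 29.4 and 34.6 FPKM in Het, which overlapped. Because reads may be split between the entries, they were also summed. The sum was 239 ± 12.9 FPKM in WT and 532 ± 51.3 FPKM in Het (SD, n = 3 each). The ribosomal protein genes as a list showed no such difference, with a median of −0.00 over 80 tested, 38 positive and 42 negative, although pair 3 had 74 negative and pairs 1 and 2 had 50 and 62 positive. Gm15772 lost its call without WT replicate 2 (adjusted p = 0.144), without WT replicate 3 (0.0895) and without Het replicate 2 (0.0677). When the 3 knockouts shared the fit, neither Gm15772 (adjusted p = 1.00) nor 2610507I01Rik (0.598) was called.

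Hmgn2, which encodes a nucleosome-binding protein of the high mobility group, lies on chromosome 4. It stood at 149, 85.3 and 86.4 FPKM in WT and at 215, 144 and 137 FPKM in Het. Replicate 1 was the highest in both groups, so the groups overlapped while each Het library exceeded the WT library of the same number. The log2 difference was 0.65, with a limma adjusted p of 1.00 without the block and 0.0321 with it. The knockouts held 90.9, 81.2 and 143 FPKM, of which replicates 1 and 2 were near WT replicates 2 and 3.

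Replicate 1 of each group also differed in its column header, which carries the letters CH where replicates 2 and 3 carry CL. The headers do not say what the letters stand for. The CH libraries WT 1 and Het 1 correlated with each other at 0.991 across genes, against a range of 0.965 to 0.991 over all pairs. The CH pair and the CL libraries gave the same direction for each called gene. The log2 differences were 1.88 and 1.78 for 2610507I01Rik, 1.45 and 1.21 for Gm15772, 0.53 and 0.70 for Hmgn2, and −0.77 and −0.72 for Hic1, CH first. The CH letters hold 1 library per group, so that value has no test of its own. With the letters as a term, 4 genes (0.0313%) were called, those named with the block.

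**Figure D2:**
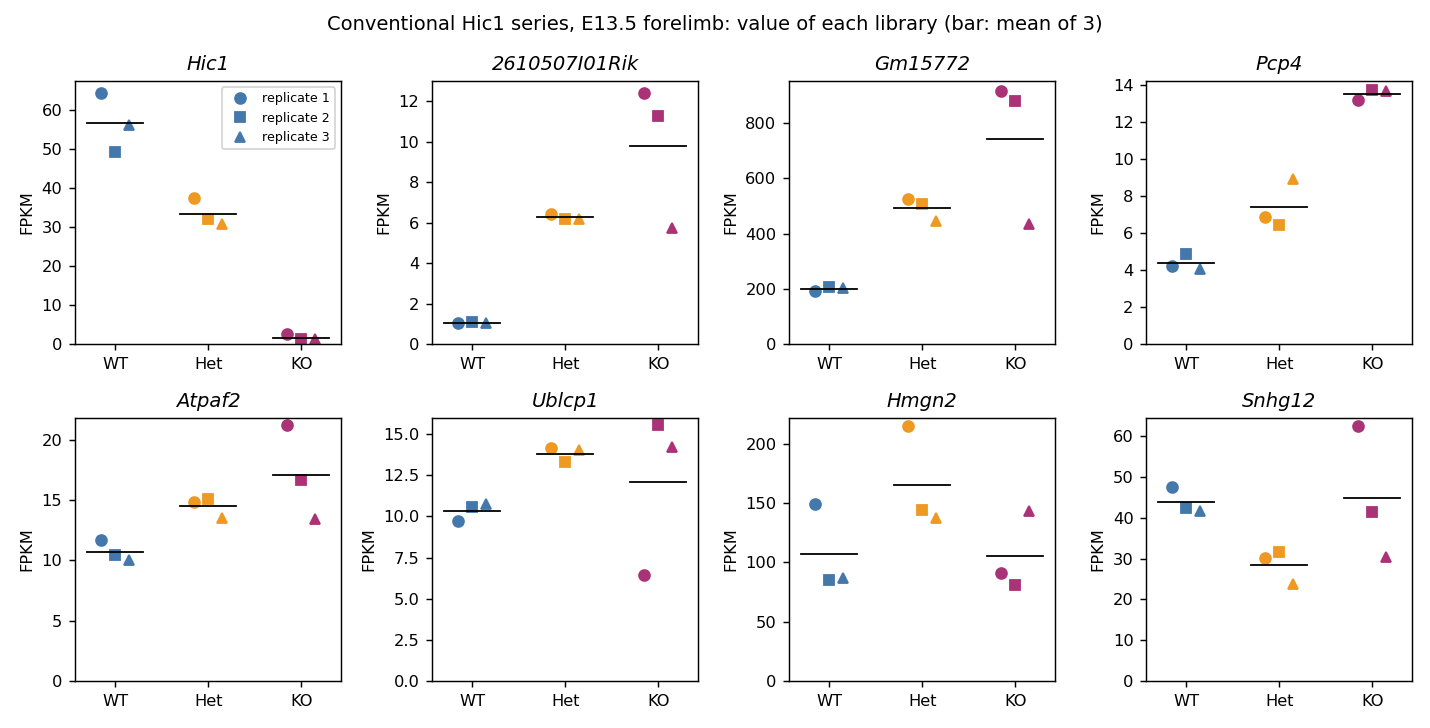
FPKM of 8 genes in each conventional library, by genotype on the horizontal axis, with 1 symbol per replicate number and a bar at the mean of 3. 2610507I01Rik and Gm15772 are higher in every Het than in every WT library, and knockout replicate 3 lies near the heterozygotes for both.

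The remaining genes with the smallest p did not pass adjustment in limma (adjusted p = 1.00 each), and their values describe these libraries only. Over all genes tested, the Het libraries lay wholly above the WT libraries for 309 genes (2.42%) and wholly below for 182 (1.43%). Pcp4, a small regulator of calmodulin, stood at 4.22, 4.86 and 4.08 FPKM in WT and 6.88, 6.44 and 8.93 FPKM in Het. Its groups did not overlap, and the knockouts were higher again at 13.2, 13.7 and 13.7 FPKM. Its log2 difference was 0.63 ± 0.13 (SE). Pcp4 was also called higher in the Prrx1-Cre knockout, and its RefSeq window, chr16:96467356-96467655 on the plus strand, is printed for that reason.
Pcp4: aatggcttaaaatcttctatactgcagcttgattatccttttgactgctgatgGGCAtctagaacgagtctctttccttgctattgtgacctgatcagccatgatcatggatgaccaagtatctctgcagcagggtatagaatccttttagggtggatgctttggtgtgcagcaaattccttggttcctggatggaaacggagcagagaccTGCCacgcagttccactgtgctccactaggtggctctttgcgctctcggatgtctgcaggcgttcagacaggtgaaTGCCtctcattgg
It holds 3 GGCA matches, the median of all windows, and 0 GGGCANCC matches.

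Atpaf2, an assembly factor of the mitochondrial ATP synthase, stood at 11.7, 10.4 and 9.98 FPKM in WT and 14.84, 15.05 and 13.48 FPKM in Het. Ublcp1, a phosphatase of the proteasome, stood at 9.72, 10.6 and 10.7 FPKM in WT and 14.2, 13.3 and 14.0 FPKM in Het. Both lie on chromosome 11 and neither overlapped between the groups, with log2 differences of 0.40 and 0.39. Ihh, the Hedgehog ligand made by maturing cartilage cells, stood at 6.26, 5.27 and 5.34 FPKM in WT and 7.94, 7.54 and 7.25 FPKM in Het, again without overlap. Its log2 difference was 0.38. The knockouts did not share a direction, at 10.97 FPKM in replicate 1, above all WT and Het libraries, and 5.18 and 4.53 FPKM in replicates 2 and 3, below all WT libraries. Hand1, a basic helix-loop-helix factor of early limb and heart, stood at 0.614, 0.701 and 0.703 FPKM in WT and 2.10, 1.07 and 1.89 FPKM in Het. Every WT library was below the filter of 1 FPKM, so Hand1 was tested only because of its Het values. Its difference is therefore not independent of the filter. The others of this set were Dynlt1b, a dynein light chain (0.54), Gadd45a, a stress-induced growth arrest gene (0.28), and Rps15a-ps6 (0.59). The last is a pseudogene that may share reads with Rps15a, and their sum was 70.9 ± 2.43 FPKM in WT and 75.0 ± 10.2 FPKM in Het (SD, n = 3 each).

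Among lower genes Snhg12, a long noncoding RNA that hosts small nucleolar RNAs, stood at 47.5, 42.4 and 41.6 FPKM in WT and 30.1, 31.6 and 23.7 FPKM in Het. The groups did not overlap, and the log2 difference was −0.61. FPKM per gene do not set apart reads of the nucleolar RNAs inside Snhg12 and Snhg6, and the strand setting of the counting is not stated. Tekt2, a tektin of ciliary microtubules, stood at 11.1, 11.4 and 11.6 FPKM in WT and 7.97, 9.07 and 9.07 FPKM in Het, a difference of −0.35. Nefl, the light neurofilament chain, stood at 5.10, 4.17 and 4.28 FPKM in WT and 3.40, 3.48 and 2.72 FPKM in Het, without overlap. Snora17, a small nucleolar RNA, was listed at 12.1, 26.9 and 17.7 FPKM in WT and at 0, 8.63 and 0 FPKM in Het. Its knockouts were listed at 21.3, 8.66 and 0 FPKM. The rest were C1s1, a complement protease (−0.42), Nmi, an interferon-induced binding partner of STAT proteins (−0.42), Igfbp1, which binds insulin-like growth factors (−0.53), Snhg6 (−0.30) and Capns2, a calpain subunit (−0.87).

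The tissue label was checked first among the gene lists. Tbx5, the forelimb T-box factor, stood at 60.9 FPKM on average in WT and 61.9 FPKM in Het. The hindlimb factors Tbx4, at 7.91 and 7.57 FPKM, and Pitx1, at 2.61 and 2.49 FPKM, were far lower. In whole forelimb RNA, fewer cells of a type and less RNA per cell cannot be told apart, which holds for each list below. Over all genes tested, 52.9% had a positive log2 difference and the median was 0.00. No list other than that of chromosome 11 genes had a member called. The direction of a list often rested on single libraries: of 35 lists, 23 had a median that changed sign when 1 of the 6 libraries was left out, and in 25 the medians of the 3 numbered pairs differed in sign.

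The matrix genes made by connective tissue fibroblasts had mostly negative differences in numbered pairs 1 and 3 and mostly positive ones in pair 2. Of 22 tested, 21 had a negative log2 difference of the group means and 1 a positive one, with a median of −0.09, a lowest value of −0.40 and none called. By pair, 22, 5 and 20 of the 22 were negative, with medians of −0.19, 0.07 and −0.18, and 4 were negative in all 3 pairs. Without Het replicate 3, 13 were negative and the median was −0.03. Mfap5, a microfibril protein, stood at 1.72, 1.76 and 1.13 FPKM in WT and 0.939, 1.16 and 0.672 FPKM in Het. The groups overlapped in 1 library, although each Het library was below its same-numbered WT library. The Het mean was 0.92 FPKM, so Mfap5 reached the filter of 1 FPKM through its WT values. Postn, at 80.1 and 67.6 FPKM on average, and Fbn2, at 181 and 167 FPKM, were also among the 4 lower in every pair. Col1a1 averaged 520 FPKM in WT and 474 FPKM in Het and was higher in Het in pair 2, by 0.10. The knockout values of the list were lower still, with a median of −0.37 against the same WT libraries. The summed FPKM of the list was 3199 to 3636 in WT and 2831 to 3475 in Het, so as a sum the groups overlapped.

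Markers of the mesenchymal cells themselves split. Of 9 tested mesenchymal progenitor genes 5 were positive and 4 negative, with a median of 0.01. Cd44, a receptor for hyaluronan, was the exception by size, at 4.77, 5.16 and 4.36 FPKM in WT and 3.50, 4.19 and 3.10 FPKM in Het. Its groups did not overlap, the difference was −0.33 and the knockouts were at 1.53, 1.87 and 2.20 FPKM. Pdgfra stood at 127 FPKM in WT and 131 FPKM in Het. In the list of fibroblast factors, 5 were positive and 7 negative, and Dpt, which encodes dermatopontin, was lowest at −0.43. Dpt stood at 4.87, 6.33 and 5.52 FPKM in WT and 3.22, 4.89 and 3.56 FPKM in Het, overlapping by 1 library. Tendon genes were divided 5 to 5 with a median of −0.00, but in pair 2 all 10 were positive (median 0.21) and in pairs 1 and 3 there were 9 and 8 negative.

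Muscle and cartilage genes also went opposite ways in the numbered pairs. Of 20 contractile muscle genes, 16 were negative, with a median of −0.05 and a range from −0.13 to 0.07. In pairs 1 and 3, 20 and 18 were negative, with medians of −0.21 and −0.16, and in pair 2, 19 were positive, with a median of 0.21. Without Het replicate 3 the list had 14 positive members and a median of 0.04. Of 17 cartilage genes 13 were positive, with a median of 0.01. Pair 2 had 15 positive and pair 1 had 16 negative, and without Het replicate 2 there were 14 negative. Sox9, the cartilage master regulator, averaged 67.4 and 69.2 FPKM. Gdf5, a ligand that marks forming joints, stood at 48.1, 41.2 and 40.5 FPKM in WT and 54.9, 43.8 and 46.5 FPKM in Het. It was higher in each of the 3 same-numbered pairs and had the largest difference of 8 tested joint interzone genes. Of these 8, 6 were positive and 2 negative, with a median of 0.05, and pair 1 had 4 positive and 4 negative. Of 28 limb patterning genes, 21 were positive and 7 negative, with a median of 0.04. Tbx2, a T-box repressor, and Hoxd10 did not overlap between groups, at 15.05 and 16.8 FPKM and at 48.1 and 51.7 FPKM on average. They were the only 2 of the 28 wholly higher in Het, against 309 of 12763 genes tested (2.42%), and neither was called. Of the 28, 7 were higher and 3 lower in all 3 numbered pairs, and over all genes 30.3% had 1 direction in all 3 pairs.

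Signalling genes gave the following counts, with none called. Of 12 retinoic acid genes, 10 were positive, with a median of 0.06, and 6 without Het replicate 1. Aldh1a2, the enzyme that makes retinoic acid in mesenchyme, stood at 42.5, 39.1 and 39.1 FPKM in WT and 57.0, 36.1 and 56.4 FPKM in Het, so that replicate 2 went the other way. Of 12 FGF genes 9 were positive, with a median of 0.05. Fgf8, the ligand of the apical ridge, stood at 0.896, 0.913 and 1.39 FPKM in WT and 2.32, 1.15 and 2.08 FPKM in Het, which overlapped in 1 library. Of 16 Wnt antagonists and targets 8 were positive. Rspo3, a secreted enhancer of Wnt signalling, was lowest of these at −0.32, with 10.6, 14.7 and 12.6 FPKM in WT and 8.27, 11.2 and 10.3 FPKM in Het. Its groups overlapped, and each pair was lower. BMP and TGF-beta genes were divided 9 to 8, and of 11 Hedgehog genes 9 were positive, or 5 without WT replicate 2.

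The genes most tied to HIC1 itself differed little. Of 9 tested literature targets, 7 were positive, with a median of 0.01 and a range from −0.06 to 0.11. Only 3 were positive without Het replicate 1 and 4 without WT replicate 2 or 3. Sirt1, a deacetylase gene repressed by HIC1 in human and mouse cells, averaged 13.2 FPKM in WT and 12.6 FPKM in Het. Cdkn1c, a cell cycle inhibitor, averaged 703 and 705 FPKM, and Ccnd1, which encodes cyclin D1, 90.6 and 98.5 FPKM. Hic2, the paralogue, averaged 6.42 and 6.83 FPKM. Of 15 tested members of a chosen list of genes near Hic1 on chromosome 11, 12 were positive, with a median of 0.06. They ranged from −0.06 to 0.15, and 7 were positive without Het replicate 1. Tlcd2 was the highest of the 15, at 9.71, 8.09 and 8.68 FPKM in WT and 9.81, 9.97 and 9.80 FPKM in Het. The list left out some genes of this stretch, such as Mir22hg at −0.25. All 135 other tested genes within 5 Mb of Hic1 had a median of 0.02.

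Blood, immune and nerve markers were followed as other cell types of the forelimb. The 3 primitive erythroid globin genes were all positive, with a median of 0.22, and their summed FPKM was 2139 to 2440 in WT and 2840 to 2903 in Het. Hbb-y, an embryonic globin, stood at 2151, 2102 and 1890 FPKM in WT and 2541, 2560 and 2545 FPKM in Het, without overlap. Of 5 definitive erythroid genes 4 were positive and 1 negative, with a median of 0.22. In pair 3, and without Het replicate 2, 2 were positive and 3 negative, with medians of −4e-04 and −0.03. Slc4a1, the red cell anion exchanger, was the highest of these 5. It stood at 2.49, 3.44 and 3.18 FPKM in WT and 3.60, 4.75 and 5.19 FPKM in Het. Hbb-bs, an adult globin gene, was listed at 6.11 and 6.94 FPKM in WT replicates 1 and 2 and at 0.004 FPKM or less in the other 7 conventional libraries. Of 3 tested interferon response genes all were negative, with Bst2 at 12.1, 7.12 and 6.62 FPKM in WT and 6.00, 6.28 and 5.68 FPKM in Het. Of 5 neuron markers 4 were negative, with a median of −0.09. Of 9 macrophage markers 5 were positive and 4 negative, with a median of 0.05. Without WT replicate 3, 8 of these 9 were negative, with a median of −0.14. The part of these cell types in other differences was not tested.

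Sex-linked transcripts were not balanced between the groups. Xist stood at 101, 195 and 0.044 FPKM in WT and 108, 0.104 and 0.152 FPKM in Het, and Ddx3y at 0, 0 and 24.7 FPKM in WT and 0, 20.1 and 24.9 FPKM in Het. WT thus had Xist in 2 of 3 libraries and Het in 1 of 3, with the numbered pair 2 mismatched. The part of this in other differences was not tested.

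**Figure D3:**
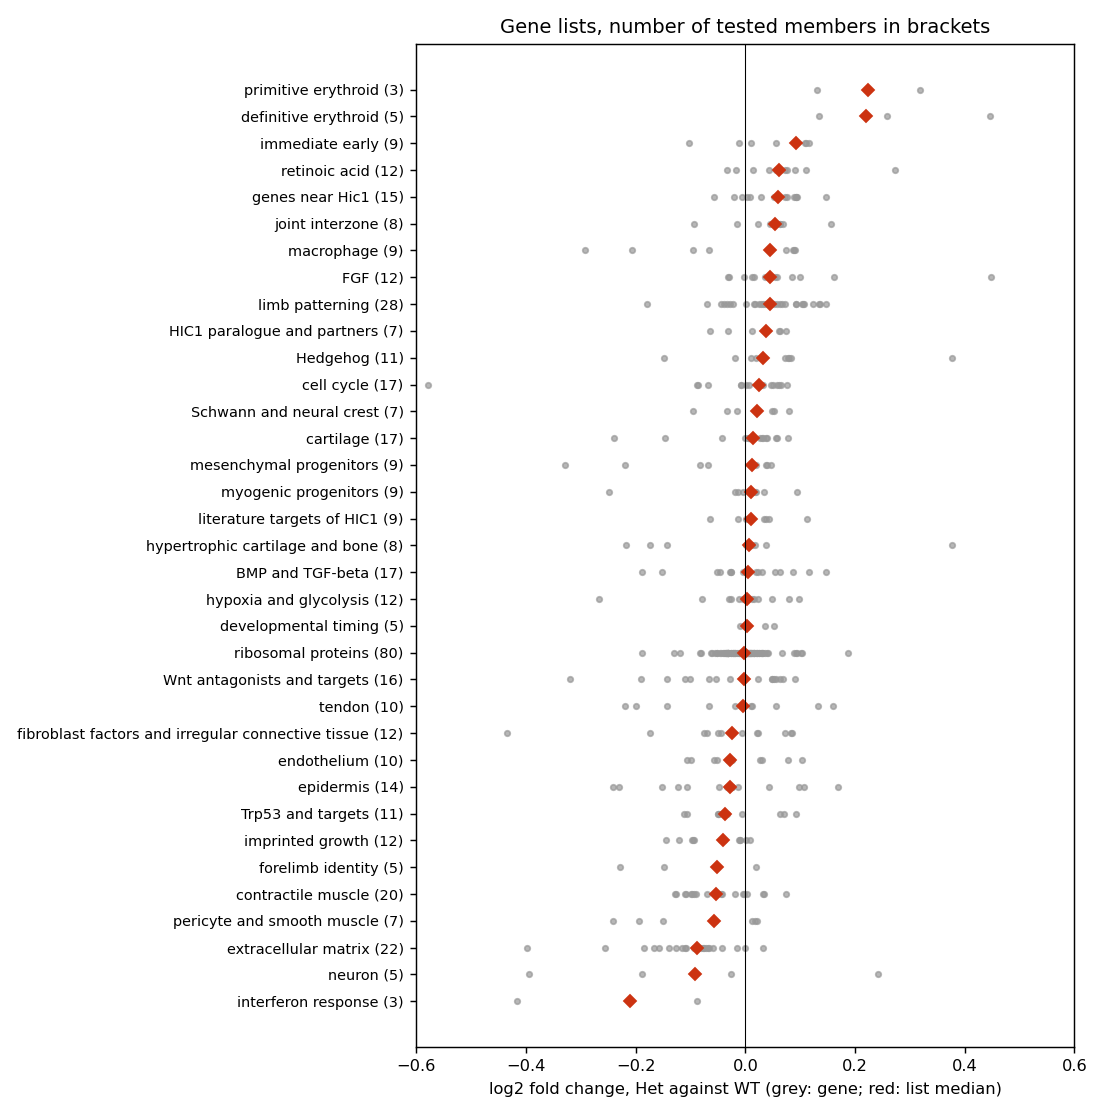
Log2 fold change of Het against WT for the tested members of each gene list (grey points) and the list median (red diamonds), with the number tested in brackets. Most medians lie within 0.1 of 0, with the interferon response furthest to the left and both erythroid lists furthest to the right. The axis ends at 0.6 and leaves out 1 member, Hbb-bs.

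Genes chosen on other libraries gave a reading of the heterozygote that did not depend on its own values. In the Prrx1-Cre series, knockout against control called 28 of 12932 genes (0.217%), 17 higher (0.131%) and 11 lower (0.0851%). No library of that test entered the conventional comparison. Only its knockouts carry Cre, so loss of Hic1 and Cre cannot be told apart in this choice of 28 genes. Of these, 27 were tested here, and 24 had the same direction in the conventional heterozygote, 23 of 26 without Hic1. Among the 17 that were higher in the knockout, 14 were positive, with a median of 0.09, and all 10 tested of the lower genes were negative, with a median of −0.22, or −0.19 without Hic1. The median over all genes was 0.00, with 52.9% positive and 47.1% negative. How often all genes share their direction between that knockout and this heterozygote was not counted. Of the 27 genes, 7 did not overlap between groups in the direction of the knockout, and 14 kept that direction in all 3 pairs. Without Hic1 these were 6 and 13 of 26. Over all genes tested, 2.42% lay wholly above and 1.43% wholly below. Of the 12763 genes, 2141 were higher in all 3 pairs and 1726 were lower in all 3. With the block Hic1 alone of the 27 was called in the heterozygote, and without it none was.

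Slc14a2, a urea transporter, stood at 1.70, 1.15 and 1.85 FPKM in WT and 3.26, 1.92 and 2.26 FPKM in Het. Each Het library exceeded each WT library, with a difference of 0.43, and the conventional knockouts stood at 8.56, 5.07 and 4.83 FPKM. Qprt, an enzyme of NAD synthesis, stood at 1.46, 1.60 and 1.25 FPKM in WT and 1.14, 0.758 and 0.872 FPKM in Het, also without overlap, with a difference of −0.35. Its Het mean was 0.92 FPKM, so Qprt reached the filter of 1 FPKM through its WT values. Rit2, a small GTPase of neurons, stood at 2.18, 2.27 and 2.46 FPKM in WT and 1.30, 1.94 and 1.93 FPKM in Het, a difference of −0.29. The other 5 of the 10 genes named from that test overlapped between the groups. Sst, the peptide hormone somatostatin and the largest increase of the Prrx1-Cre knockout, stood at 3.75, 2.46 and 3.76 FPKM in WT and 2.73, 2.69 and 3.28 FPKM in Het, a difference of −0.14 with overlap. Frzb, a secreted Wnt antagonist, averaged 7.34 and 7.05 FPKM (−0.05), and Meox1, a homeobox factor, 10.04 FPKM in both groups (−0.01). Lrrc75b (0.05) and AA465934 (0.20) were the other two. The direction of AA465934 turned with array weights, that of Lrrc75b without replicate 2 of either group, and that of Meox1 under several settings. When the genes were chosen without the 2 controls of column letters OC, 13 were tested and 12 kept the direction.

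**Figure D4:**
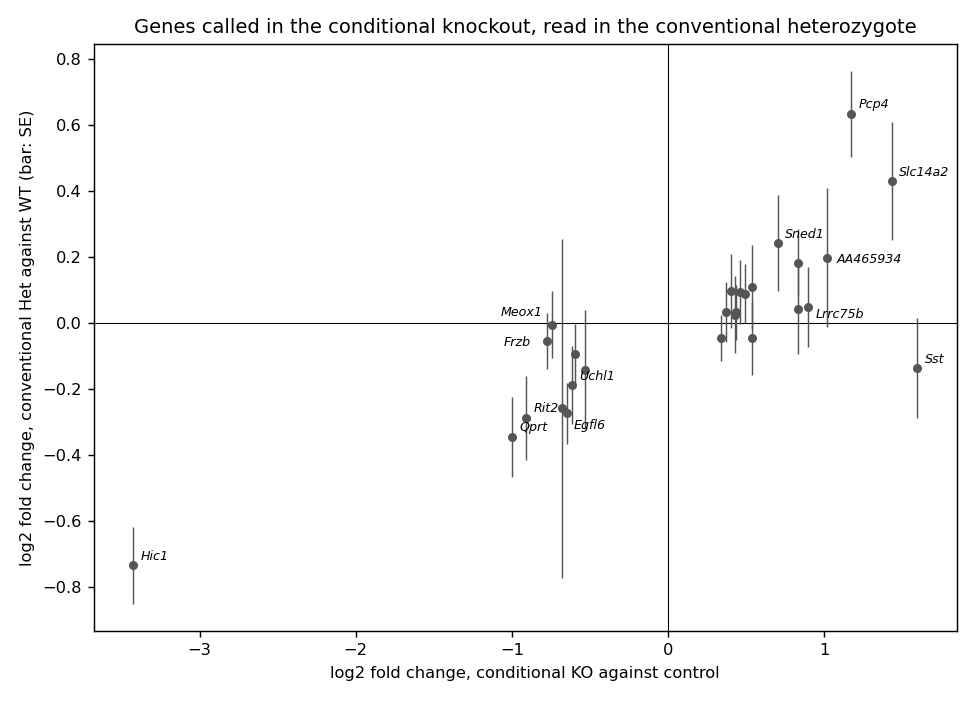
Each point is 1 of the 27 genes called in the Prrx1-Cre knockout and tested here, with its log2 fold change in that knockout on the horizontal axis and in the conventional heterozygote on the vertical axis (bar: SE). The lower genes lie below 0 and 14 of the 17 higher genes lie above it, with Pcp4 and Slc14a2 the highest and Hic1 the lowest.

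The share of genes with a small p differed between chromosomes. With the block, 10.4% of chromosome 4 genes and 10.3% of chromosome 11 genes had an unadjusted p under 0.05, against 7.45% of all genes. Within these chromosomes, 2 segments, chosen after their values were seen and so given no test, held a larger share than the rest. On chromosome 4 from 120 Mb on, 59 of 383 genes (15.4%) passed that threshold, 43 higher and 16 lower, against 26 of 434 (5.99%) below 120 Mb. On chromosome 11 between 30 and 70 Mb, 47 of 282 (16.7%) passed, 34 higher and 13 lower, against 60 of 756 (7.94%) on the rest of the chromosome. All other chromosomes together had 759 of 10908 (6.96%). Without the block the same segments had 4.18% and 3.90%, against 0.935% on the other chromosomes. By whole chromosome, that fit gave 2.33% for chromosome 4, 2.07% for chromosome 14, 2.02% for chromosome 11 and 1.96% for chromosome 16. The share over all genes was 1.11%. Hic1 lies outside the chromosome 11 segment, and 5 of the 135 other genes within 5 Mb of it (3.70%) passed with the block.

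The chromosome 11 segment holds 2610507I01Rik, the locus given for Gm15772, Atpaf2, Ublcp1 and Hand1, which passed the filter only through its Het values. The chromosome 4 segment holds Hmgn2, Snhg12, Tekt2 and Eno1, and 5 more genes named here after their values were seen. Stmn1, which destabilises microtubules, stood at 187, 144 and 134 FPKM in WT and 230, 176 and 183 FPKM in Het. Hdac1, a histone deacetylase, stood at 44.7, 31.6 and 34.8 FPKM in WT and 54.9, 40.9 and 41.2 FPKM in Het. Both overlapped between groups and were higher in each numbered pair. Trnp1 was higher by 0.70, and the neighbouring F-box genes Fbxo44 and Fbxo2 by 1.42 and 0.57. Fbxo44 was uneven among WT libraries, at 4.97, 0.778 and 0.348 FPKM, with 9.20, 3.79 and 4.58 FPKM in Het. Eno1, a glycolytic enolase, had a difference of −0.27, at 55.3, 50.4 and 64.3 FPKM in WT and 44.1, 44.4 and 51.8 FPKM in Het. Its near copy Eno1b on chromosome 18 was higher at 0.37, and their sum, 183 ± 29.8 FPKM in WT and 209 ± 28.3 FPKM in Het (SD, n = 3 each), overlapped.

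The knockouts did not all continue these differences. For Hmgn2, Snhg12 and Tekt2, knockout replicates 1 and 2 were nearer the WT mean and replicate 3 nearer the Het mean, with Snhg12 at 62.6, 41.3 and 30.5 FPKM and Tekt2 at 12.8, 10.2 and 7.59 FPKM. Knockout replicate 3 was also nearest to the heterozygotes for 2610507I01Rik and Gm15772. The labels used here give no strain or litter, and the part of these in the segments was not tested.

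**Figure D5:**
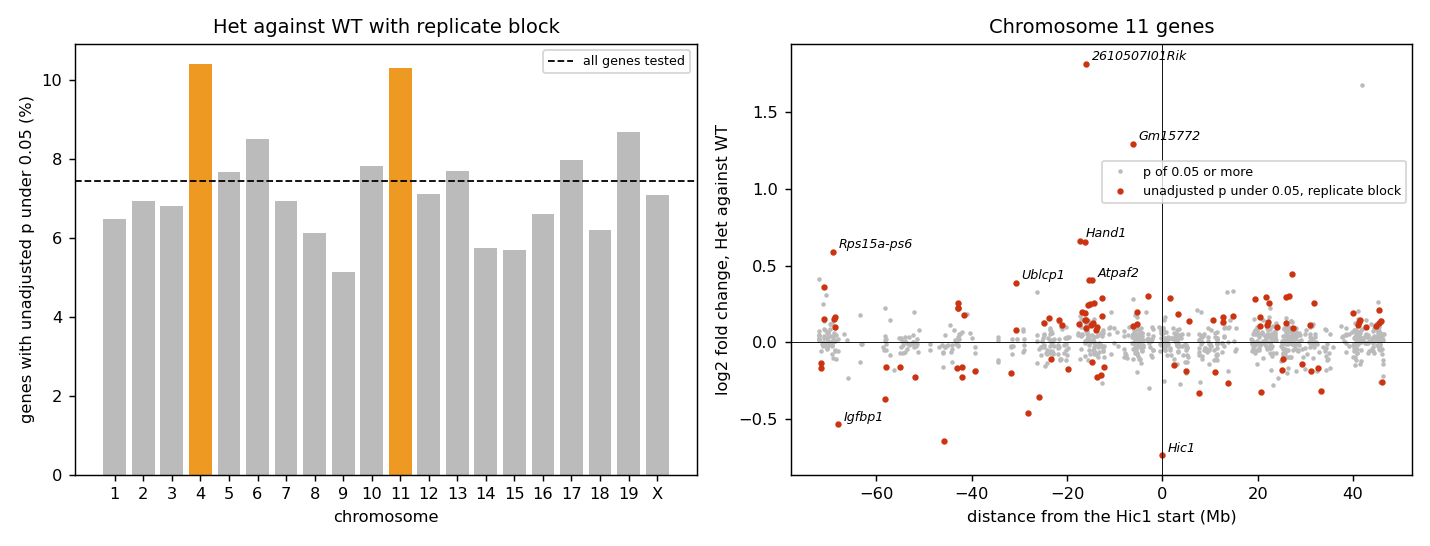
The left panel gives the percent of genes on each chromosome with an unadjusted p under 0.05 in the replicate block fit (dashed line: all genes, 7.45%), with chromosomes 4 and 11 in orange. The right panel gives the log2 fold change of each chromosome 11 gene against its distance from the start of Hic1 in Mb, with genes under that threshold in red. The 2 highest red points, 2610507I01Rik and Gm15772, lie before Hic1.

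The Prrx1-Cre heterozygotes, which share no library with the conventional ones, were the other heterozygote comparison. They carry Cre and their controls do not, so loss of 1 allele and the presence of Cre cannot be told apart there. Against their controls 1 of 12886 genes was called (0.00776%), Hic1, which lost its call with the column letters as a term, and 601 (4.66%) had an unadjusted p under 0.05. Of the genes under that threshold with the block in the conventional heterozygote, 322 of 471 higher genes (68.4%) were also higher in the Prrx1-Cre heterozygote, and 346 of 467 lower genes (74.1%) were also lower. Over all genes tested in both tables these shares were 61.6% and 61.0%. For the genes under that threshold without the block, they were 43 of 72 higher genes (59.7%) and 48 of 60 lower genes (80.0%). With the column letters as a term in the Prrx1-Cre fit, the shares were 53.9% and 66.0%, against 53.9% and 57.0% for all genes, and 43.1% and 58.3% for the genes chosen without the block. The higher genes had the same direction no more often than all genes except in the blocked set without the letters. Pcp4 had a difference of 0.05 there, Ublcp1 −0.09, Hmgn2 0.13, Snhg12 −0.05, Atpaf2 0.02 and Gm15772 −0.18, none of them called. Egfl6, a secreted protein called lower in the Prrx1-Cre knockout, was named here after its values were seen. It had −0.27 in the conventional heterozygote and −0.34 in the Prrx1-Cre heterozygote. Slc14a2 had 0.46, Qprt −0.44 and Rit2 −0.44 in the latter, in their conventional direction, while AA465934 had −0.0012, against it. None of these was called. The knockout test that chose them used the same 5 controls, so these values are not independent of the choice.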

How the data were processed

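FPKM per gene were deposited by the authors in 2 tables, 1 for each strategy, with 24340 gene symbols each. The submitters' processing notes name TopHat2 and Bowtie2, Cufflinks and bcl2fastq with build mm10; versions and the gene annotation are not given in the sources used here. Per the labels' protocols polyA RNA of whole forelimbs went into a stranded kit. Without counts the depth is unknown, and so is the counting error. FPKM summed to 410482 to 442602 in the 6 libraries, with 16851 to 17215 genes above 0.

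Each table was tested separately with limma 3.58.1 in R 4.3.3 on log2(FPKM + 1), with eBayes and a mean trend, two-sided, on genes whose mean over the libraries compared reached 1 FPKM. A gene counted as called when its Benjamini-Hochberg adjusted p was under 0.05. The script was tested on simulated data. Replicate numbers come from the sample titles. Deviations from the group means correlated at 0.714, 0.247 and 0.501 for same-numbered conventional libraries, all above 0.1, so a fit with the replicate number as a block is given beside the unblocked one where it changed a call. Pair 2 correlated less well than WT 2 with Het 3 (0.378) or WT 3 with Het 2 (0.288). The minimum of 0.1 thus did not set numbered pairs apart among the CL libraries. Between CH and CL libraries the values were negative (−0.609 to −0.372). The conventional pairs are not stated to share a litter. Conditional numbers did not pair (−0.141 to 0.446).

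Positions are from GENCODE M21 and promoter sequences from RefSeq on GRCm38.p6; 3 of 3 genes looked up matched. Named genes are Hic1, called genes (up to 15 per direction), those with the smallest p up to 10 per direction, up to 4 members per list, and 5 per direction of the Prrx1-Cre knockout calls. The members, lists and rule were chosen with earlier results of these data known. The 27 dates standing for symbols in the conditional table were restored by locus.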

Additional observations from a re-analysis of the deposited data

Results flagged for a closer look

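In the groups of 5 Prrx1-Cre libraries, 58 groups of 29 named genes were examined for a library far from the rest, and 5 were found, where chance gives about 1 in 20 groups. 2610507I01Rik was 6.67 FPKM in heterozygote replicate 2, against 0.742 to 0.986 FPKM in the other 4. Ihh was 5.0 FPKM in heterozygote replicate 5, against 1.62 to 2.44 FPKM. Hmgn2 was 498 FPKM in heterozygote replicate 3, against 419 to 435 FPKM. In control replicate 1, Igfbp1 was 1.42 FPKM against 1.01 to 1.10 FPKM, and Snora17 was 21.9 FPKM where the other controls were listed at 0. The conventional groups of 3 are too small for this comparison.

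Ublcp1 differed in direction between the strategies, with a log2 difference of 0.39 in the conventional heterozygote, where every Het library exceeded every WT library, and of −0.09 in the Prrx1-Cre heterozygote. That difference was not tested.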

How the results depend on the processing

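The count of 2 called genes was 2 with a pseudocount of 0.1, with no filter, with equal medians, with quantile normalization and with array weights. It was 4 with the replicate block, 4 with column letters as a term, 1 with a mean of at least 5 FPKM, and 0 when the 3 knockouts shared the fit (47 at an unadjusted p under 0.05). Within the CL libraries, an alternative chosen after seeing the data, it was 6. Leaving out 1 library gave 1 to 4 calls, 1 without WT replicate 2 and 4 without Het replicate 2. In the fit with the knockouts, 2610507I01Rik had an adjusted p of 0.598 and Gm15772 of 1.00. Hic1 was −0.74 in the blocked fit (adjusted p = 0.0321) and with the letters (0.0105), and −0.83 to −0.64 when 1 library was left out. The block brought in Hmgn2 and Hic1 and changed no other call of a named gene. The Prrx1-Cre heterozygote had 0 calls with column letters as a term and 1 under every other setting tried. Of the genes of the Prrx1-Cre knockout, 20 to 24 kept their direction when 1 conventional library was left out, and 12 of 13 when chosen without the OC controls, also an alternative chosen after seeing the data.

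Directions turned for 4 genes that were not called. AA465934 was −0.12 with array weights. Lrrc75b was −0.027 without WT replicate 2 and −0.0023 without Het replicate 2, from −0.027 to 0.12 over the libraries left out. Meox1 was 2e-04 with quantile normalization, 0.082 with array weights and 0.015 within CL, and −0.081 to 0.084 over the libraries left out. Hapln1, a cartilage link protein at −0.24, was 0.023 without WT replicate 2 and 0.23 without Het replicate 1, from −0.64 to 0.23. Of 708 values of 46 named genes, 689 kept their direction and side of the threshold. Of 576 values of 36 list medians, 508 moved by less than the standard deviation of the 3 pair medians and 68 by more. The cause of these changes was not tested, except that leaving out libraries leaves fewer samples.

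FPKM without counts give no depth, 3 libraries a group limit what can be seen, and changes of low genes are understated.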
